A study of Mus musculus with 6 samples.

Results

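The proteasome genes were the 49 rows whose gene name was Psma, Psmb, Psmc, Psmd, Psme, Psmf or Psmg followed by a number, or was Pomp, among 55736 gene rows in the deposited matrix. Their transcript levels, in TPM, a unit corrected for gene length and scaled to a fixed library total, were measured by bulk RNA-seq in mouse bone marrow derived macrophages (BMDM), which are macrophages grown from bone marrow progenitors. All libraries were labelled wild type, and the cell type field of the labels says leukocyte. The 3 control libraries were from cells at 24 h, and the 3 LPS libraries were from cells given lipopolysaccharide, a bacterial cell wall component sensed by Toll-like receptor 4, at 200 ng/ml for 24 h. The number 500 in the titles of the LPS libraries is not explained by the labels. Nor do the labels say whether the libraries of a group came from separate cultures or animals. The p-values cover only library-to-library spread, possibly a technical one.

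The proteasome is the protease complex that degrades ubiquitin-tagged proteins in the cytosol and nucleus. Its 20S core is a barrel of outer alpha rings and inner beta rings, and only the beta subunits Psmb5, Psmb6 and Psmb7 carry catalytic sites in the standard core. Psmb8, Psmb9 and Psmb10 take their places in the immunoproteasome, which is known for cutting peptides for MHC class I presentation and is inducible by interferon. The 19S particle recognises ubiquitin and unfolds substrates, the PA28 activator (Psme1 and Psme2) opens the core without ubiquitin, and dedicated chaperones assemble the parts.

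Of the 49 genes, 48 reached 1 TPM in at least 3 of the 6 libraries and were tested together with 12440 genes in all. Psmb11, the catalytic subunit of the thymic core, was the exception, at 0, 0 and 0.01 TPM without LPS and at 0, 0 and 0.36 TPM with it. After LPS, 30 of the 48 were higher (62.5%), 4 were lower (8.33%) and 14 did not pass the test (limma on log2(TPM + 1), Benjamini-Hochberg adjusted p of at most 0.05 over all tested genes). Over all tested genes, 16.3% were called higher and 59.8% were called lower. The 34 genes called in either direction (70.8%) stand beside 76.1% called among all tested genes. The median change of the proteasome genes was 0.25 on the log2 scale, against -0.44 for all tested genes, and 46 of the 48 lay above that all-gene median. In 37 of the 48 genes the control and LPS libraries did not overlap, and in 31 of those every LPS library was above every control library. All tested genes showed no overlap in 78.6% of cases and LPS above control in 17.3%.

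TPM is a share of the library, so the count of genes called in each direction depended on the reference. With median-of-ratios scaling, which brings the median change of all genes to -0.03, 42 proteasome genes were higher and 2 were lower, against 31.6% and 35.3% of all genes (67.0% in either direction). The 12 genes that gained a call with that scaling were Psma1, Psmb1, Psmc3, Psmc6, Psmd1, Psmd2, Psmd5, Psmd11, Psmd13, Psme3, Psmg1 and Psmg3. Relative to the geometric mean of the alpha ring genes Psma1 to Psma7, 8 were higher (Psma6, Psmb5, Psmb8, Psmb10, Psmc5, Psmd10, Psme1 and Psme2) and 30 were lower, against 8.84% and 78.9% of all genes. Psma1 to Psma7 are themselves among the genes counted, so by construction their changes centre on the reference. A gene that rose less than the reference has a value below it on this scale. Summed over the members, proteasome transcripts held 0.509% to 0.523% of the TPM of the control libraries and 0.747% to 0.788% of the LPS libraries, from 5151 ± 73.0 to 7687 ± 206 TPM (SD, n = 3 each), a ratio of 1.49. Without Psmb8, Psmb9, Psmb10, Psme1 and Psme2, the sum went from 4493 ± 35.5 to 5499 ± 53.4 TPM (SD, n = 3 each), a ratio of 1.22.

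**Figure D1:**
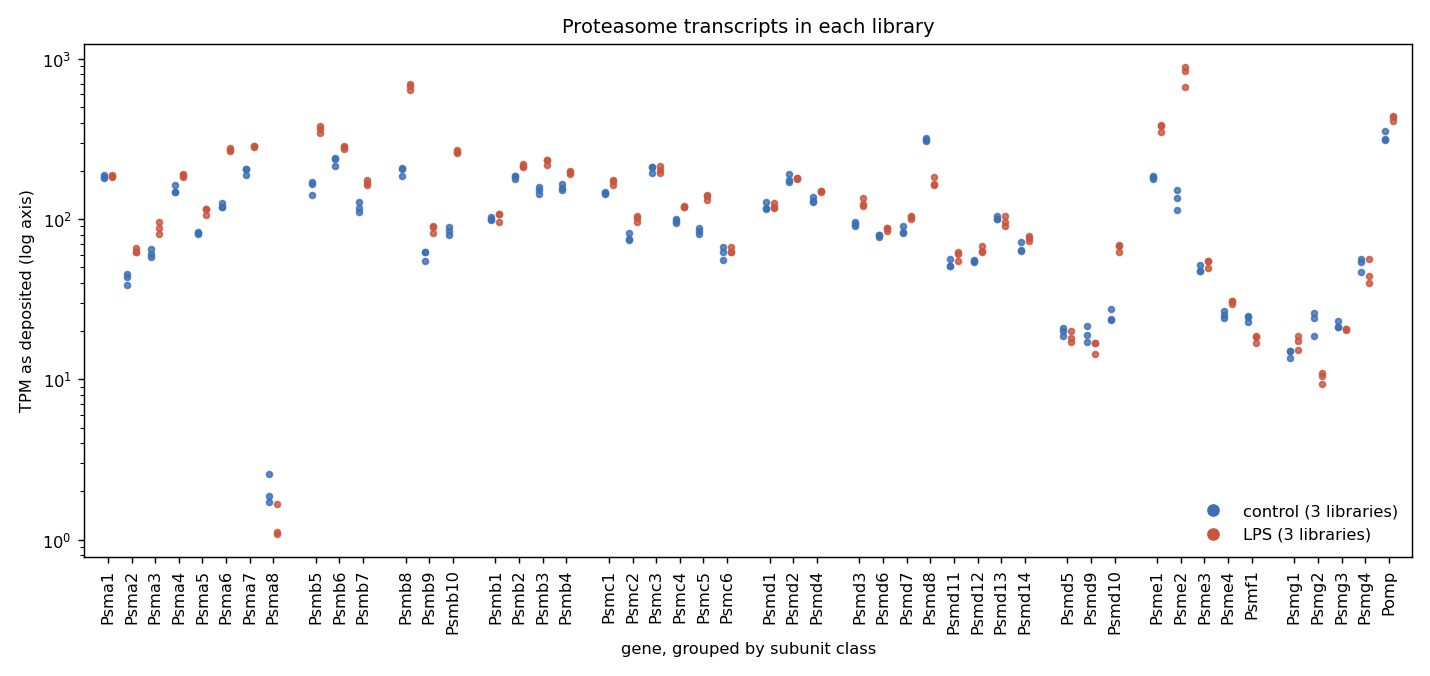
TPM of the 48 tested proteasome genes in each of the 6 libraries, on a log axis, with genes grouped by subunit class; blue points are control and red points are LPS libraries. Psmb8, Psmb10 and Psme2 show wide gaps between the groups, whereas Psmd8 is lower in the LPS libraries.

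Among the catalytic subunits, all 3 immune genes and all 3 standard genes rose. The summed TPM of the immune genes went from 343 ± 20.9 to 1019 ± 37.7, a ratio of 2.97, and from 6.66% ± 0.327 to 13.3% ± 0.144 of all proteasome TPM (SD, n = 3). The summed TPM of the standard genes went from 508 ± 37.5 to 812 ± 30.8, a ratio of 1.60. The median log2 change was 1.63 in the immune class and 0.51 in the standard class.

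The sequences upstream of the start sites of these genes other than Psmb7, and of Psme1 and Psme2, are shown because the changes of their transcripts differed in size. They are the 100 bases before the RefSeq transcription start on the gene's own strand (RefSeq, GRCm38.p6), with the Psme1 stretch running 19 bases further to take in its match. Capitals mark matches to 4 motifs searched on both strands of the window from 250 bases before to 50 bases after the start: the interferon-stimulated response element core GAAANNGAAA, the gamma-activated site core TTCNNNGAA, the antioxidant response element core TGACNNNGC and the CCAAT box. The Psmb8 stretch is at chr17:34198095-34198194 on the plus strand, Psmb10 at chr8:105938393-105938492 on the minus strand and Psmb9 at chr17:34187331-34187430 on the minus strand. Psmb5 is at chr14:54617996-54618095 on the minus strand, Psmb6 at chr11:70525257-70525356 on the plus strand, Psme1 at chr14:55578394-55578512 on the plus strand and Psme2 at chr14:55591102-55591201 on the minus strand. The RefSeq starts lie 474 bases inside the GENCODE M21 gene for Psmb8, 434 for Psmb9 and 371 for Psme1, so these 3 stretches are upstream of the RefSeq start but within the GENCODE gene. The starts lie 52, 27 and 12 bases inside it for Psmb10, Psmb5 and Psme2. Which start these cells used was not measured.
Psmb8: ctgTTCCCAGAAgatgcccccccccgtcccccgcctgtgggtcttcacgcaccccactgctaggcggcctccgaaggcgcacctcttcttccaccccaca
Psmb10: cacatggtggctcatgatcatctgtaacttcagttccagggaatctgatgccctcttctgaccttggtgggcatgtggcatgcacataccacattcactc
Psmb9: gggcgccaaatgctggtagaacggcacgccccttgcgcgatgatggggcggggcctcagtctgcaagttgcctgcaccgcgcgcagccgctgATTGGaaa
Psmb5: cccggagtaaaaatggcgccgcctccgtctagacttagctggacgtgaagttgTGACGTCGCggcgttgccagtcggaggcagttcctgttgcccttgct
Psmb6: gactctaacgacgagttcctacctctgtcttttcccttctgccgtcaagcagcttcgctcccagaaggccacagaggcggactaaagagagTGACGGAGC
Psme1: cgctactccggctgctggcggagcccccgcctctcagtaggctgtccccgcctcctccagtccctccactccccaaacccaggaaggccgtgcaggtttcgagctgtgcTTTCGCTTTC
Psme2: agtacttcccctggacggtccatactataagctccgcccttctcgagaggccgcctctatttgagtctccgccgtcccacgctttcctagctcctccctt
Within the printed stretches, Psmb8 holds a gamma-activated site core at positions -97 to -89 from its start, and Psmb9 holds a CCAAT box read on the other strand. Psmb5 and Psmb6 each hold an antioxidant response element core, at -47 to -39 and -9 to -1. Psme1 holds an interferon-stimulated response element core on the other strand at 10 to 19, and the printed stretches of Psmb10 and Psme2 hold none of the 4. Of the 49 genes, 41 had a promoter window. A gene with several windows was counted once, if any of them held the motif. The interferon-stimulated response element core was found for 5 of the 41 genes (12.2%; Psmb3, Psmd4, Psmd9, Psme1 and Psmg4) and for 3.99% of all 27025 genes with a window. The gamma-activated site core was found for 7.32% of these proteasome genes and 9.55% of all, the antioxidant response element core for 14.6% and 14.0%, and the CCAAT box for 34.1% and 41.1%. A match is a description of letters, and binding was not measured.

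Psmb8 (ENSMUSG00000024338, chr17:34197721-34201454, plus strand), the chymotrypsin-like immune subunit that replaces Psmb5, stood at 208, 186 and 204 TPM in the control libraries and at 675, 698 and 634 TPM in the LPS libraries. Its mean went from 199 ± 12 to 669 ± 32.3 TPM, a log2 change of 1.74 (SE 0.06, limma adjusted p = 2.83e-07). Its standard counterpart Psmb5, on chromosome 14, stood at 165, 140.5 and 170.4 TPM in the control libraries and at 363, 382 and 346 TPM in the LPS libraries. Both genes were thus separated between the groups in every library, and Psmb5 changed by 1.19 (SE 0.08, limma adjusted p = 8.2e-06), more than the other 2 standard catalytic genes. The microRNA gene Mir686, which lies within the gene span of Psmb5 on the same strand, is listed at 0 in 5 libraries and at 245 TPM in LPS library 2.

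Psmb10 (chr8:105935735-105938444, minus strand), the trypsin-like immune subunit that replaces Psmb7, stood at 88.8, 79.5 and 84.8 TPM in the control libraries and at 261, 269 and 259 TPM in the LPS libraries, a log2 change of 1.63 (SE 0.05, limma adjusted p = 1.98e-07). Psmb7 stood at 128, 111 and 116 TPM and then at 168, 176 and 162 TPM, a change of 0.51 (SE 0.06, limma adjusted p = 0.000234). The groups did not overlap for either gene, and the larger change was that of the immune member.

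Psmb9 (chr17:34181987-34187764, minus strand), the immune subunit that replaces the caspase-like Psmb6, stood at 62.6, 54.6 and 62.1 TPM in the control libraries and at 82.3, 90.6 and 88.7 TPM in the LPS libraries. Its change of 0.54 (SE 0.07, limma adjusted p = 0.000276) was below that of the other immune genes, and relative to the alpha ring it was not called. Psmb6 stood at 242, 214 and 237 TPM and then at 282, 286 and 273 TPM, a change of 0.28 (SE 0.06, limma adjusted p = 0.0028) that turned to -0.22 relative to the alpha ring. Psmb9 and Psmb8 are 9956 bases apart, with the peptide transporter gene Tap1 between them. The ratio of Psmb8 to Psmb9 TPM went from 3.34 to 7.69, a quantity chosen after the values were seen and given without a test. The gene spans of Psmb9 and Tap1 overlap on opposite strands, and Tap1 averaged 53.4 TPM without LPS and 142 TPM with it. How strand was used in counting is unknown here, so reads from the shared stretch cannot be told apart. The gene spans of Psmb7 and Nek6, Psmc3 and Slc39a13, Psmd13 and Sirt3, and Psme1 and Emc9 also overlap on opposite strands. The same limit holds for any exon stretch that they share.

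Expressed as the immune member's share of each pair's TPM, which no scaling of a library can alter, all 3 shares were higher in every LPS library than in every control library. For Psmb8 with Psmb5, the shares were 55.7%, 56.9% and 54.5% in control and 65.0%, 64.7% and 64.7% in LPS libraries, a difference of 9.09 percentage points between means of 55.7% ± 1.21 and 64.8% ± 0.209 (SD, n = 3). For Psmb10 with Psmb7, they were 40.9%, 41.8% and 42.1% and then 60.8%, 60.5% and 61.5%, a difference of 19.3 points, so that the immune transcript passed from the minority to the majority of the pair. For Psmb9 with Psmb6, they were 20.6%, 20.3% and 20.8% and then 22.6%, 24.1% and 24.5%, a difference of 3.18 points, and Psmb6 remained the more abundant transcript. Each exact two-sided permutation test gave p = 0.1 (n = 3 per group, 0.1 after adjustment over the 3 pairs), the smallest value that 3 against 3 libraries allow, so none could pass a limit of 0.05. The summed TPM of the pairs were 2.89, 1.26 and 2.13 times the control level for Psmb5 with Psmb8, Psmb6 with Psmb9 and Psmb7 with Psmb10.

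**Figure D2:**
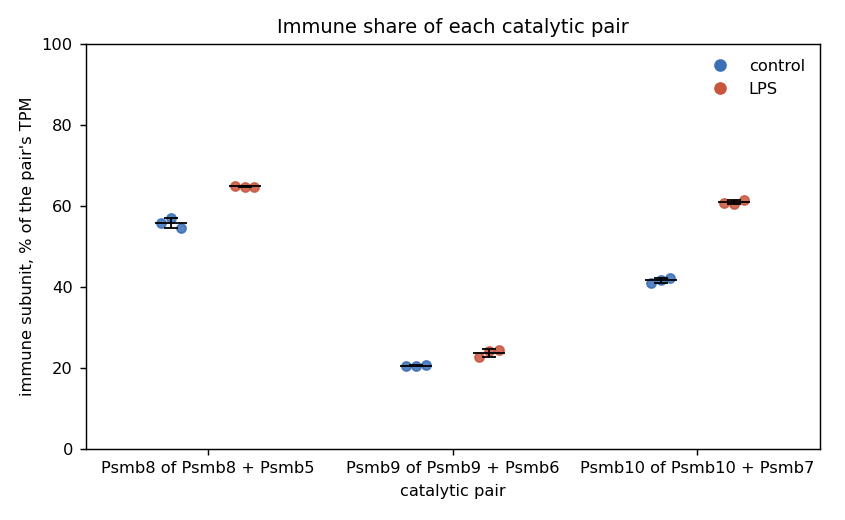
Share of the immune subunit in the summed TPM of each catalytic pair, in percent; points are libraries, and the horizontal marks and bars are the mean and SD of 3 libraries. The mean share of Psmb10 passes from 41.6% to 60.9%, that of Psmb8 from 55.7% to 64.8% and that of Psmb9 from 20.6% to 23.7%.

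Among the activators and the inhibitor, Psme1, Psme2 and Psme4 rose, Psme3 did not pass the test and Psmf1 fell on the TPM scale. The class went from 8.02% ± 0.203 to 16.5% ± 1.03 of all proteasome TPM (SD, n = 3), most of it from the PA28 genes. Psme2 (chr14:55587441-55591113, minus strand), the PA28 beta subunit, stood at 151, 113 and 134 TPM in the control libraries and at 838, 885 and 667 TPM in the LPS libraries. Its mean went from 133 ± 19.03 to 797 ± 114 TPM, a log2 change of 2.57 (SE 0.14, limma adjusted p = 2.3e-06), the largest among the 48 genes. Psme1 (chr14:55578123-55581529, plus strand), the PA28 alpha subunit, stood at 186, 184 and 177 TPM and then at 349, 388 and 378 TPM, a log2 change of 1.03 (SE 0.05, limma adjusted p = 1.98e-06). Psme1 was the more abundant of the PA28 transcripts in every control library and Psme2 in every LPS library. The genes are 5911 bases apart on opposite strands. The ratio of Psme2 to Psme1 was 0.814, 0.617 and 0.760 in control and 2.40, 2.28 and 1.76 in LPS libraries, again chosen after the values were seen and not tested.

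Psme2b, a copy of Psme2 on chromosome 11, was at 6.62, 0 and 2.13 TPM in the control libraries and at 3.85, 7.75 and 3.74 TPM in the LPS libraries. Reads that fit both copies could have been assigned to either. With both genes summed, the change was 2.56, close to that of Psme2 itself. Psme4, the PA200 activator of the nucleus, stood at 24.2, 26.8 and 25.1 TPM and then at 30.9, 30.9 and 29.6 TPM, a change of 0.26 (SE 0.06, limma adjusted p = 0.00607) that was -0.23 relative to the alpha ring. Psme3, the nuclear PA28 gamma activator, stood at 47.5, 51.9 and 47.1 TPM and then at 54.5, 49.1 and 54.6 TPM, and the groups overlapped (limma adjusted p = 0.168). Psmf1, the core inhibitor PI31, stood at 22.9, 24.6 and 24.8 TPM and then at 18.3, 16.7 and 18.5 TPM, a change of -0.41 (SE 0.07, limma adjusted p = 0.00101) that was 0.02 and not called with median-of-ratios scaling and 0.07 with quantile normalization.

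**Figure D3:**
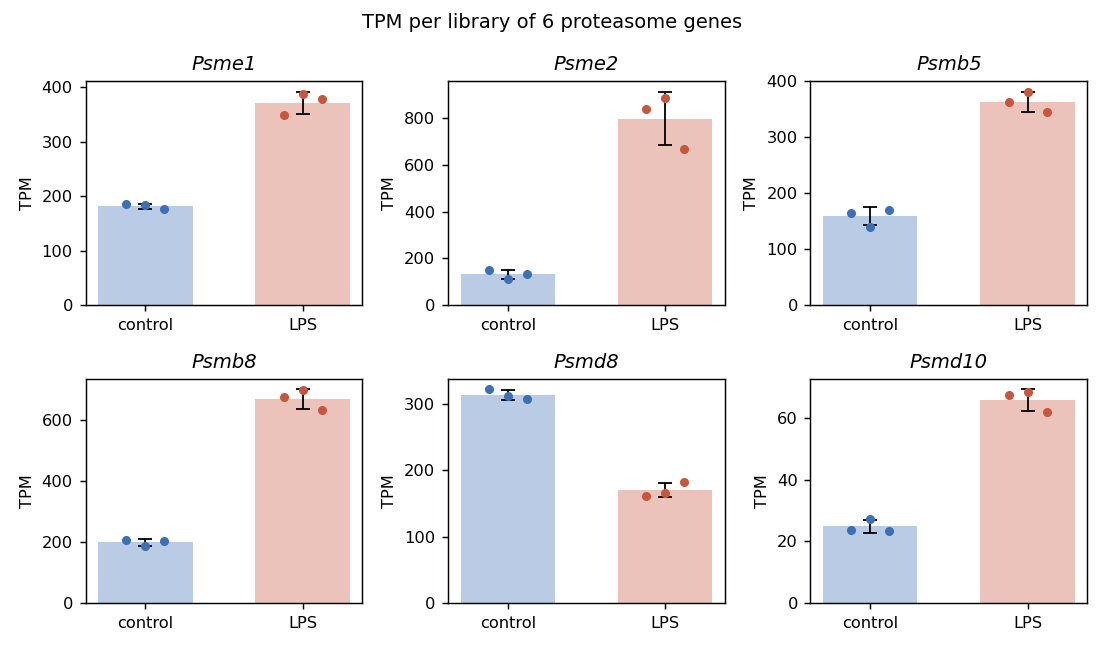
TPM of 6 proteasome genes in each library; bars are means, error bars are SD over 3 libraries and points are libraries. Psme2 passes Psme1 in the LPS libraries, Psmb8 stays above Psmb5, Psmd10 is higher in the LPS libraries and Psmd8 is lower.

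In the alpha ring, 6 of 8 genes rose, 1 fell and 1 did not pass the test. Among all tested genes, 16.3% were higher and 59.8% were lower. The class sum of the alpha ring went from 845.5 ± 10.8 to 1194 ± 13.2 TPM (SD, n = 3). Psma6 changed most. It stood at 126, 119 and 119.5 TPM and then at 264, 279 and 269 TPM, a log2 change of 1.15 (SE 0.04, limma adjusted p = 4.83e-07). Psma2, Psma3, Psma4, Psma5 and Psma7 rose by 0.30 to 0.56, and relative to the ring's own mean Psma4 and Psma5 were at -0.20 and -0.05. Psma1 stood at 188, 181 and 183 TPM and then at 182, 189.5 and 186 TPM, so the groups overlapped (log2 change 0.02, limma adjusted p = 0.743), although with median-of-ratios scaling it was called higher by 0.47 (6.61e-05). Each alpha ring holds one copy of every one of these subunits, and their transcripts changed by unequal amounts. Psma8, the alpha subunit of the testis core, was near the level filter at 1.87, 1.72 and 2.55 TPM and then 1.11, 1.66 and 1.09 TPM, and its change of -0.41 (SE 0.16, limma adjusted p = 0.0481) was lost without control library 1 or 3 or LPS library 1 or 3 (adjusted p of 0.0707 to 0.142) and was -0.13 and not called with median-of-ratios scaling and 0.09 with quantile normalization.

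Of the structural beta subunits, Psmb2, Psmb3 and Psmb4 rose. Psmb3 had the largest change of the class, from 158, 152 and 143 TPM to 233, 235 and 218 TPM (log2 0.60, SE 0.05, limma adjusted p = 3.91e-05). Psmb1 stood at 103, 99.0 and 100.4 TPM and then at 107, 108 and 96.2 TPM, with overlapping groups (limma adjusted p = 0.522). Psmb2 and Psmb4 changed by 0.24 and 0.31, and both values were below 0 relative to the alpha ring. Over the 14 standard core genes, that is Psma1 to Psma7 and Psmb1 to Psmb7, 12 were higher and 2 did not pass the test. This stands beside 16.3% higher among all tested genes. The median log2 change of the 14 genes was 0.48. With median-of-ratios scaling all 14 were higher, beside 31.6% of all tested genes.

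The regulatory particle changed less. Of its 17 subunit genes, 10 were higher, 1 was lower and 6 did not pass the test, beside 16.3% higher among all tested genes. Their median log2 change was 0.18, against 0.48 for the standard core. The sum of their levels was 1947 ± 42.7 TPM without LPS and 2026 ± 34.9 TPM with it (SD, n = 3). The fall of Psmd8, from a mean of 313.8 to 169.6 TPM, offset part of the rise of the other genes in that sum. The part of the regulatory particle in all proteasome TPM, Psmd8 included, was 37.8% ± 1.17 and then 26.4% ± 1.11. That of the standard core was 37.7% and then 35.8%. With median-of-ratios scaling 16 of the 17 genes of the particle were higher, beside 31.6% of all tested genes.

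In the base, the ATPase genes Psmc1, Psmc2, Psmc4 and Psmc5 rose, the first 3 of them by values that were below 0 relative to the alpha ring, and Psmc3 and Psmc6 did not pass the test. Psmc5 stood at 87.7, 83.9 and 80.5 TPM and then at 131, 142 and 139.5 TPM, a log2 change of 0.70 (SE 0.05, limma adjusted p = 1.71e-05). Psmc3 stood at 210.3, 194 and 210.0 TPM and then at 201, 195 and 214 TPM, with overlapping groups and a change of -0.01 (limma adjusted p = 0.865) that was 0.44 and called with median-of-ratios scaling. Psmd4 is a ubiquitin receptor of the base. In the non-ATPase class, here Psmd1, Psmd2 and Psmd4, it was the member that rose. Psmd4 went from 128, 137 and 129 TPM to 147, 149 and 149 TPM (log2 0.18, SE 0.04, limma adjusted p = 0.0081, and -0.33 relative to the alpha ring). The scaffold genes Psmd1 and Psmd2 did not pass the test. Psmd1, the lowest of the class by change, stood at 118, 128 and 115 TPM and then at 118, 116 and 126 TPM, and it was called higher, by 0.45, with median-of-ratios scaling.

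In the lid, Psmd3, Psmd6, Psmd7, Psmd12 and the deubiquitinase gene Psmd14 rose, by 0.14 to 0.44 on the log2 scale, and all 5 values were below 0 relative to the alpha ring. The call of Psmd6 was lost without control library 1, LPS library 1 or LPS library 2 (limma adjusted p of 0.0518 to 0.0772), and that of Psmd14 without control library 1 or 3 or LPS library 1 or 2 (0.0783 to 0.0891). Psmd3 was the highest of them, from 92.8, 95.3 and 90.7 TPM to 125, 119.9 and 134 TPM (SE 0.05, limma adjusted p = 0.000228). Psmd11 and Psmd13 did not pass the test, although Psmd11 did without control library 2 (limma adjusted p = 0.0294) or LPS library 2 (0.0325). Psmd8 (chr7:29174188-29180701, minus strand), a lid subunit, fell. It stood at 322, 312 and 307 TPM in the control libraries and at 162, 165 and 182 TPM in the LPS libraries, a log2 change of -0.89 (SE 0.05, limma adjusted p = 5.33e-06). It was the most abundant regulatory particle transcript of the control libraries, and it was still lower with median-of-ratios scaling (-0.43). The coefficient of variation of the levels of the 17 subunit genes was 55.8% to 60.1% in the control libraries and 35.9% to 38.7% in the LPS libraries. Much of that gap came from Psmd8: over the other 16 genes it was 41.1% to 44.8% and then 36.5% to 38.9%, an alternative chosen after seeing the data. That of the 14 standard core genes was 38.7% to 39.3% and then 42.6% to 44.6%. These spreads are a description, with no test.

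The assembly chaperones did not move together. Among the chaperones of the base, Psmd10, also known as gankyrin, rose from 23.8, 27.3 and 23.5 TPM to 67.4, 68.4 and 62.0 TPM, a log2 change of 1.37 (SE 0.08, limma adjusted p = 2.93e-06). Psmd9 stood at 18.97, 17.1 and 21.4 TPM and then at 16.7, 14.3 and 16.9 TPM, and the change missed the limit (-0.25, limma adjusted p = 0.0648) but not without control library 2 (0.0284). Psmd5 did not pass the test either. For the core, Pomp, the maturation factor that the newly completed core degrades, rose from 316, 309 and 353 TPM to 437, 433 and 407 TPM (log2 0.39, SE 0.06, limma adjusted p = 0.000843; -0.12 relative to the alpha ring). Psmg2 fell from 24.1, 25.8 and 18.6 TPM to 10.9, 10.5 and 9.41 TPM (log2 -1.07, SE 0.13, limma adjusted p = 0.000174) and was still lower with median-of-ratios scaling (-0.64). Psmg1, Psmg3 and Psmg4, the other chaperones of alpha ring assembly, had log2 values of 0.22, -0.09 and -0.17 and did not pass the test. Psmg1, which acts as a heterodimer with Psmg2, was called higher without LPS library 3 (limma adjusted p = 0.0221), and Psmg4 was called lower without LPS library 1 (0.0267).

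**Figure D4:**
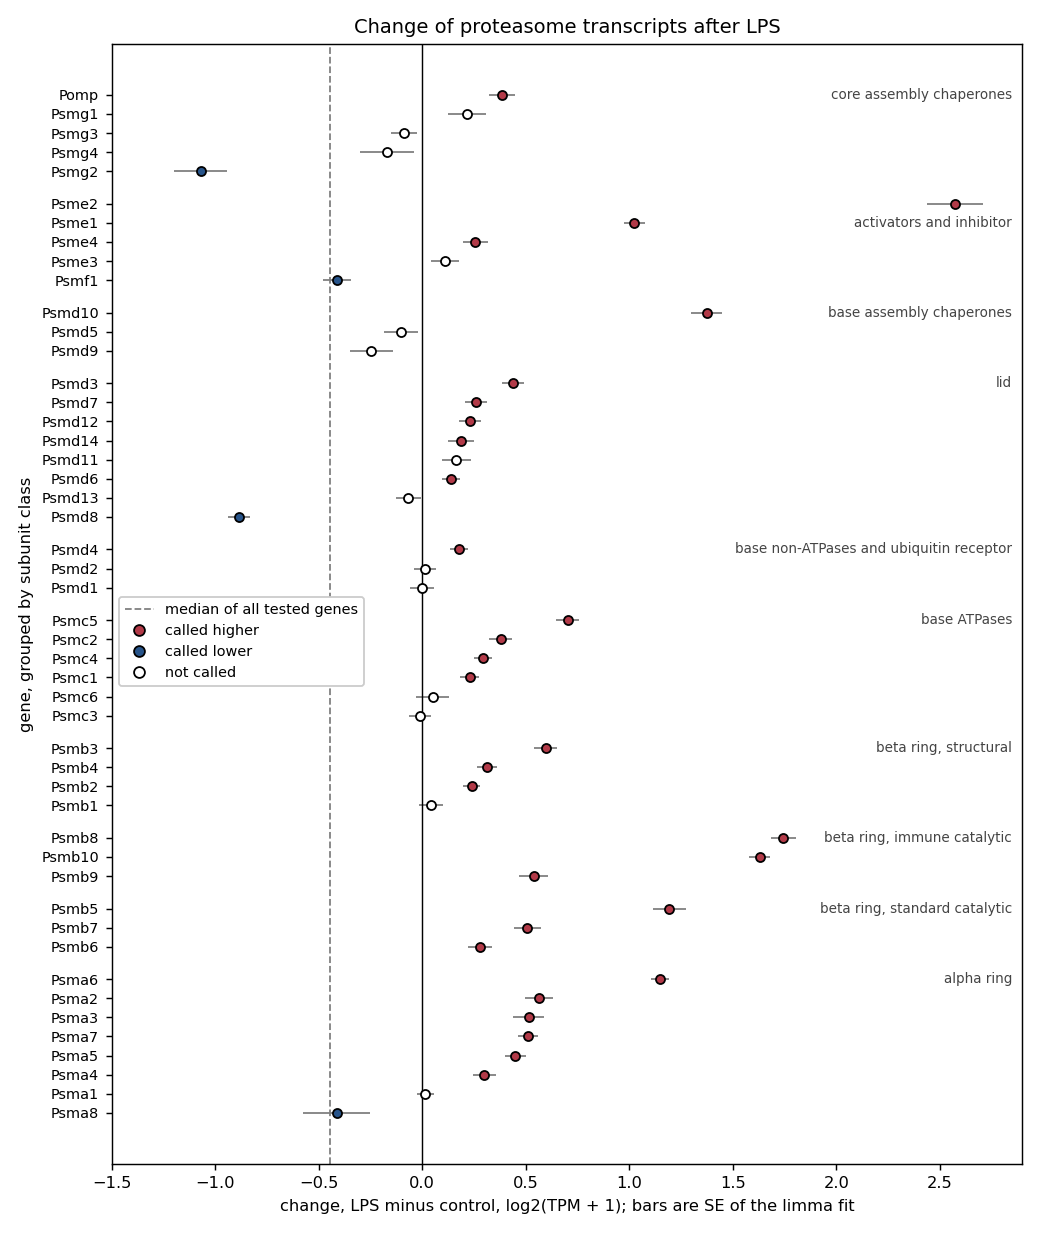
Change of each tested proteasome gene on the log2(TPM + 1) scale, LPS minus control, with the standard error of the limma fit, grouped by subunit class; red points were called higher, blue points lower and white points neither. The dashed line is the median of all tested genes at -0.44, and 46 of 48 genes lie to its right.

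The genes of the proteasome's partners, regulators and downstream peptidases are counted here beside the shares of all tested genes, 16.3% higher and 59.8% lower, or 31.6% and 35.3% with median-of-ratios scaling. Of 23 tested genes for ubiquitin activation, ubiquitin itself, shuttle factors and proteasome-bound proteins, 5 were higher and 11 were lower (median -0.07), and with median-of-ratios scaling 13 were higher and 4 were lower. The highest was Uba1, the main ubiquitin-activating enzyme, from 152.5 ± 13.0 to 257.5 ± 11.2 TPM (SD, n = 3; limma adjusted p = 4.14e-05), and the lowest was Ubqln2, a shuttle factor, from 36.1 ± 1.32 to 17.2 ± 1.24 TPM (SD, n = 3; limma adjusted p = 8.93e-06). Of 7 transcription factors known to regulate proteasome genes, 2 were higher and 4 were lower, with median-of-ratios counts of 3 and 2. Nfya, a subunit of the factor that binds CCAAT boxes, was the lowest, from 107 ± 0.215 to 53.1 ± 8.41 TPM (SD, n = 3; limma adjusted p = 8.24e-05). Of 8 peptidases that trim proteasome products, 3 were higher and 3 were lower, with median-of-ratios counts of 5 and 1. The highest was Erap1, the trimming enzyme of the endoplasmic reticulum, from 25.9 ± 4.12 to 39.4 ± 4.68 TPM (SD, n = 3; limma adjusted p = 0.00374), and the lowest was Blmh, from 55.7 ± 2.86 to 32.8 ± 1.57 TPM (SD, n = 3; limma adjusted p = 2.62e-05).

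The summed TPM of 8 macrophage markers was 26503 to 28120 in the control and 34536 to 37028 in the LPS libraries. That of 10 neutrophil markers was 36.5 to 41.5 and 117 to 136, with Ly6g and Retnlg at 0 in all 6 libraries. The 3 of them that were tested were all called higher: S100a8, which activated macrophages also express, averaged 4.33 and then 79.9 TPM, Mmp8 33.2 and then 40.05 TPM with overlapping groups, and Camp 0.0567 and then 3.66 TPM. S100a9 averaged 0.593 and then 0.543 TPM, and Mpo, Elane, Ngp and Ltf averaged at most 0.15 TPM in either group. The sums of the markers of B cells, T and NK cells and erythroid cells stayed at or under 2.77 TPM in each library, with Cd3d and Cd3e at 0 in all. Dendritic cell markers summed to 9.67 to 13.8 and 8.31 to 10.4 TPM, and stromal markers to 5.26 to 7.14 and 7.62 to 8.47 TPM. Of the 4 stromal markers tested, Dcn (0.0867 and then 1.42 TPM) and Pdgfrb (0.42 and then 2.02 TPM) were called higher. Col1a1 and Col1a2 did not pass the test. The part of other cells in the changes above was not tested, and in bulk samples fewer cells of a type and less RNA per cell cannot be told apart. Genes at 1 TPM or more numbered 12376 to 12433 in the control and 11590 to 11643 in the LPS libraries, and the depth in reads is unknown because TPM does not keep it.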

How the data were processed

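Gene levels are the TPM values the authors deposited in one matrix with 6 library columns. Bowtie (0.12.2) is among the tools, and mm8 and mm9 among the mouse builds, in the submitters' processing notes. What quantifier and annotation gave the TPM, and whether strand was used, is unknown here. GENCODE M21 held 52133 (93.5%) of the identifiers and gave the gene coordinates (GRCm38). Genes reaching 1 TPM in 3 or more of 6 libraries entered the test, run on log2(TPM + 1) with limma 3.58.1 in R 4.3.3 (lmFit, eBayes with a trend, two-sided), adjusted by Benjamini-Hochberg over all tested genes, with a limit of 0.05. Fold changes on this scale understate the change of low genes. Immune shares were compared with exact two-sided permutation tests. Values were given per library for the catalytic subunits, Psme1 to Psme4, Psmf1, Pomp and, in other classes, the tested genes with the highest and lowest change. From each list of partners, regulators and peptidases the genes with the highest and lowest change were named, except 1 gene that is not reported here. The members, classes and lists were chosen with earlier results of these data known. Alternatives were other scalings, pseudocounts of 0.1 and 5, other filters, no variance trend, a replicate block and leaving out each library. Coordinates of promoters are those of RefSeq, GRCm38.p6.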

Additional observations from a re-analysis of the deposited data

How the results depend on the processing

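The count of proteasome genes called higher ranged from 28 to 31 and that of genes called lower from 3 to 5 when each library was left out, and the shares differed by 8.48 to 9.69 points for Psmb8, 2.79 to 3.75 for Psmb9 and 18.99 to 19.59 for Psmb10. The count called higher was 8 relative to the alpha ring and 28 with no variance trend, and between 30 and 42 in the other scalings, pseudocounts and filters. The count called lower was 2 with median-of-ratios scaling, 2 with upper-quartile scaling, 2 with quantile normalization, 30 relative to the alpha ring and 2 (with 28 higher) for subunits and activators alone. Of all tested genes, 28.5% were higher and 39.2% lower with upper-quartile scaling, and 32.4% and 34.2% with quantile normalization. These shares were 23.6% and 46.1% without Saa3 and Fth1, and 8.85% and 32.8% with no filter. With each library left out they were 15.3% to 16.2% and 56.7% to 58.4%. Values whose sign turned, with a call on at least 1 side, come next. Relative to the alpha ring, the log2 change turned to -0.49 for Psma1, -0.20 for Psma4, -0.0499 for Psma5, -0.22 for Psmb6, -0.46 for Psmb1, -0.26 for Psmb2, -0.19 for Psmb4, -0.27 for Psmc1, -0.12 for Psmc2, -0.21 for Psmc4, -0.45 for Psmc6, -0.49 for Psmd2, -0.33 for Psmd4, -0.0619 for Psmd3, -0.36 for Psmd6, -0.24 for Psmd7, -0.33 for Psmd11, -0.26 for Psmd12, -0.31 for Psmd14, -0.39 for Psme3, -0.23 for Psme4, -0.26 for Psmg1 and -0.12 for Pomp. With median-of-ratios scaling it turned to 0.44 for Psmc3, 0.45 for Psmd1, 0.39 for Psmd13, 0.33 for Psmd5, 0.0235 for Psmf1 and 0.35 for Psmg3. With upper-quartile scaling it turned to 0.37 for Psmc3, 0.38 for Psmd1, 0.31 for Psmd13, 0.26 for Psmd5 and 0.28 for Psmg3. With quantile normalization it turned to 0.0906 for Psma8, 0.15 for Psmd1, 0.39 for Psmd5, 0.0679 for Psmf1 and 0.39 for Psmg3. With Saa3 and Fth1 left out and the rest rescaled it turned to 0.24 for Psmc3, 0.25 for Psmd1 and 0.18 for Psmd13. Signs also turned, with a call on neither side, for Psmd9 (0.19, 0.11 and 0.27) and Psmg4 (0.28, 0.20 and 0.16) with median-of-ratios, upper-quartile and quantile scaling, for Psmc3 (0.0687) and Psmd13 (0.10) with quantile normalization, and for Psmd5 (0.13), Psmg3 (0.15) and Psmg4 (0.0745) without Saa3 and Fth1. Psmc3, Psmc6, Psmd1 and Psmd2, which were not called, also turned sign without single libraries. The turns under other scalings follow from the factors, which move all genes of a library alike except under quantile normalization. Those without single libraries involve no factor. Same-numbered libraries did not deviate together (correlations of 0.07, -0.15 and 0.08), so the numbers were not taken as pairs. With the replicate block, 30 genes were higher and 4 were lower, limma did not call Psma8 and Psmd6 (adjusted p of 0.0895 and 0.0639) and did call Psmd9 and Psmg1 (0.0318 and 0.0496). The exact sign-flip test of each share gave p = 0.25, the smallest it allows. The sequencing depth is unknown, so no counting error can be given.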
